A study of Mus musculus with 4 samples.

Results

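Complement is a cascade of serum and tissue proteins that marks microbes and damaged cells for removal. The classical pathway begins when C1q binds its target and leads to cleavage of C4; the alternative pathway runs on C3 with factor B, and properdin stabilises its enzyme. Both pathways converge on C3, and the released fragments C3a and C5a signal to leukocytes through the receptors C3aR1 and C5aR1. Most circulating complement comes from the liver, but tubule cells, stromal cells and macrophages of the kidney also make complement proteins.

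The genes described here are 9 of the 31054 features of the count tables: the 3 C1q chains (C1qa, C1qb, C1qc), C4b, C3, factor B (Cfb), properdin (Cfp) and the receptors C3ar1 and C5ar1. They were chosen by symbol, with earlier results of the same libraries known, for their counts per cell type in BPTES against DMSO. Their differences between these groups are therefore described with no p-value, and nothing is read from their outcomes in the test run on all genes. The kidneys came from male C57BL/6 mice of 19 months; one group was given BPTES, a small-molecule inhibitor of glutaminase GLS1, and the other its vehicle DMSO, both for 1 month. All mice of both groups were aged. Each group has 2 libraries, each mixed from 20000 CD45-negative and 9000 CD45-positive sorted cells, so that the leukocyte share of a library was set by the sort. The labels do not say whether the 2 libraries of a group came from separate mice, so the spread between libraries may be technical. Each SE given below also borrows spread from other genes of its class.

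The 4 libraries held 249881074 to 297947661 UMIs (unique molecular identifiers, each 1 counted transcript molecule) and gave 10849 to 12076 cells each after filtering, 46738 in all. Between 30.9% and 34.2% of a library's barcodes were over the limit of 50% mitochondrial UMIs and were left out, and pairs of libraries shared 90 to 114 barcode sequences, at most 0.618% of the smaller library. The median mitochondrial share of the kept cells was higher with BPTES, at 5.15% and 6.64% against 4.01% and 4.01% with DMSO. Clusters were named from fixed marker genes, none of them a complement gene, and each name means "like" that cell type. This gave 18 classes, of which 16 had at least 40 cells in every library, while 7 of 50 clusters with 3409 cells stayed unnamed. A level is given as CPM, the UMIs of a gene per 1e6 UMIs of the summed class. The kit counts transcripts at their 3′ ends, so a CPM is not divided by transcript length, and levels are compared between classes and libraries, not between genes. In sums over a class, fewer expressing cells and less RNA per cell cannot be told apart. The fibroblast class is the least even: it held 57 and 48 cells in the BPTES libraries, 76 in DMSO library 1 and 287 in DMSO library 2.

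In the mouse genome (mm10, GENCODE positions) the 3 C1q genes are neighbours on the minus strand of chromosome 4, within 18675 bases from 136880129 to 136898803. C4b (17:34728380-34743882) and Cfb (17:34856374-34862518) lie within 134139 bases of each other on chromosome 17, and C3 lies farther along it (17:57203970-57228136). Cfp is on chromosome X (20925454-20931555), C3ar1 on chromosome 6 (122847138-122856161) and C5ar1 on chromosome 7 (16246743-16259540), and all 9 genes are on the minus strand. Their identifiers in the tables are ENSMUSG00000036887 (C1qa), ENSMUSG00000036905 (C1qb), ENSMUSG00000036896 (C1qc), ENSMUSG00000073418 (C4b), ENSMUSG00000024164 (C3), ENSMUSG00000090231 (Cfb), ENSMUSG00000001128 (Cfp), ENSMUSG00000040552 (C3ar1) and ENSMUSG00000049130 (C5ar1). C4b has a near-identical neighbour, C4a, which has no row in the tables, so C4b counts may be affected by reads that fit both genes and are uncertain to that extent.

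RefSeq promoter windows (GRCm38.p6) were found for 6 of the 9 genes. The 250 bases before the start are printed for 3 genes whose differences between groups were large or shared, and whose window lies wholly before the start in the GENCODE annotation too. Capitals mark AGGAAG on either strand, the core of a site for ETS factors such as PU.1, or TTGCGNAA on either strand, a C/EBP site. All 3 genes are on the minus strand, and the sequences read 5′ to 3′ along it.
C1qb, chr4:136886201-136886450: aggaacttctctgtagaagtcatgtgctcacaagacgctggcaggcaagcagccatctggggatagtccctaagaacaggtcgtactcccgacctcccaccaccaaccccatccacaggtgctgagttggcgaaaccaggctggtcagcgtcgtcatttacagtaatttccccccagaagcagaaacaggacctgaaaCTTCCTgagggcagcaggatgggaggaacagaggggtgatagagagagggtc
Cfp, chrX:20931556-20931805: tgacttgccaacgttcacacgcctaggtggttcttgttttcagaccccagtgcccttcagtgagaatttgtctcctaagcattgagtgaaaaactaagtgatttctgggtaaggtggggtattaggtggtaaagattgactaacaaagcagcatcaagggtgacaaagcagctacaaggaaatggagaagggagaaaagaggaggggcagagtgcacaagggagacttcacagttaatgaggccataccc
C3, chr17:57228137-57228386: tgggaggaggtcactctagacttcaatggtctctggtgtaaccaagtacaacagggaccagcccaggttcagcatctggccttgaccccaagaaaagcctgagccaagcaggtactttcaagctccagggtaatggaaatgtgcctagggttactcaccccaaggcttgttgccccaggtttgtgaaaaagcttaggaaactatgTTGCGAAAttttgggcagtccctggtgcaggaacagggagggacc
The C1qb window holds 1 match to AGGAAG, a motif found in 29.2% of 27025 such windows, and the C3 window holds 1 match to TTGCGNAA, found in 0.670% of them. The Cfp window holds neither set of letters, and TATAAA, found on either strand of 12.97% of windows, is in none of the 3. A match is a run of letters, and factor binding was not measured here.

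By group mean, in both groups C1qa, C1qb, C1qc and C3ar1 were highest in macrophages, Cfp in dendritic cells, C5ar1 in neutrophils and Cfb in proximal tubule. In BPTES library 2 alone, Cfp was higher in the few plasmacytoid dendritic cells than in dendritic cells. For C3 and C4b the highest class was not the same in the 2 groups. With BPTES it was fibroblasts for both, at a mean of 1461 CPM of C3 and 68.6 CPM of C4b. With DMSO, C3 had means of 124 CPM in monocytes, 118 CPM in neutrophils and 115 CPM in fibroblasts, and the order for C4b differed between the 2 libraries. In DMSO library 1, C4b stood at 29.0 CPM in proximal tubule, 25.7 CPM in fibroblasts and 22.5 CPM in macrophages, and in DMSO library 2 at 33.4, 20.1 and 74.2 CPM. Counted as UMIs rather than as a level, macrophages held 71.7% of a library's C1qa UMIs on average over the 4 libraries, and proximal tubule, the most numerous class, held 90.5% of Cfb and 71.7% of C4b UMIs. Cfp came mainly from dendritic cells (41.3% of its UMIs on average), macrophages (17.1%) and monocytes (16.9%). Monocytes held more of it than macrophages in every library but DMSO library 2, where they held 7.63% against 26.3%. The leading holder of C3 UMIs differed between libraries. Fibroblasts held 41.8% and 30.8% with BPTES but 3.84% and 5.40% with DMSO, and monocytes held 27.2% and 31.6% against 20.7% and 6.80%. Proximal tubule led in DMSO library 1 with 43.8%, and the unnamed clusters led in DMSO library 2 with 41.8%. Over the 16 classes, the genes whose log2(CPM + 1) profile was most like that of Cfp were Plbd1 (Pearson r = 0.99), Mpeg1 (0.98) and Alox5ap (0.98), all expressed by myeloid cells. For C1qa they were C1qb and C1qc (1.00 each) and the macrophage gene Ms4a7 (0.99). For C3 they were Tnfaip6 (0.83), Mmp19 (0.81) and Inhba (0.80), and for C4b Adap2os (0.92), Adap2 (0.92) and Agmo (0.89). These r values describe 16 classes that share their 4 libraries and carry no test.

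**Figure D1:**
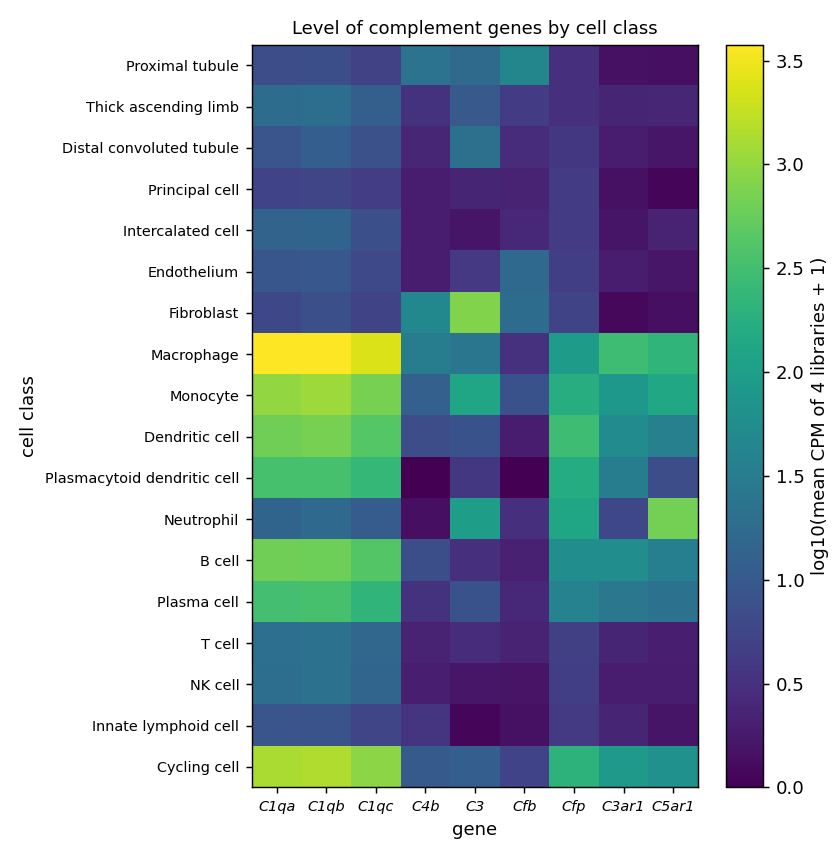
Level of the 9 complement genes (columns) in 18 cell classes (rows), as log10 of the mean CPM of the 4 libraries plus 1. The C1q columns are brightest in macrophages, C5ar1 in neutrophils, Cfp in dendritic cells and Cfb in proximal tubule, and the bright C3 of fibroblasts is a mean of 2 groups that differ widely (1461 CPM with BPTES, 115 CPM with DMSO).

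C1q is the recognition protein of the classical pathway, built from the A, B and C chains. In macrophages, C1qa stood at 3185 and 3159.6 CPM in the BPTES libraries and at 3958 and 4482 CPM in the DMSO libraries. C1qb stood at 3297 and 3398 CPM against 4019 and 4382 CPM, and C1qc at 2143 and 2119.8 CPM against 2604 and 3045 CPM. All 3 chains were thus lower in both BPTES libraries, by a fitted log2 fold change of -0.42 (SE 0.09) for C1qa, -0.34 (SE 0.09) for C1qb and -0.42 (SE 0.10) for C1qc. The ratio of C1qc to C1qa UMIs in macrophages lay between 0.658 and 0.679 in the 4 libraries, and that of C1qb to C1qa was 1.04 and 1.08 with BPTES and 1.02 and 0.978 with DMSO, slightly higher in both BPTES libraries. By cluster, C1qa was lower in both BPTES libraries in macrophage clusters 5 and 15 but overlapped in the small cluster 40 (4003 and 7023 CPM against 5636 and 5503 CPM). The summed macrophage markers moved with C1q in this class: they came to 6584 and 6106 CPM with BPTES and to 8786 and 15602 CPM with DMSO, with 6 of 9 markers lower in both BPTES libraries, none higher and none at 0. The proximal tubule markers in the same class were higher with BPTES, at 452 and 351 CPM against 277 and 218 CPM. The part of either list in the C1q difference was not tested.

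Monocytes showed a wider gap in C1q. C1qa stood there at 590.2 and 279 CPM with BPTES and at 1684 and 1394 CPM with DMSO, which is 3.54-fold lower in the mean of the BPTES libraries (log2 fold change -1.81, SE 0.39). The gap lay in cluster 16, led by Fn1, Chil3, F13a1 and Plac8, genes of classical monocytes: 899 and 422 CPM against 2121 and 1827 CPM. In cluster 19, led by Adgre4, Ear2, Cd300e, Ace and Treml4, genes of nonclassical monocytes, C1qa was low and overlapped between groups, at 15.4 to 29.7 CPM. The macrophage markers again moved the same way in cluster 16, from 5869 and 4072 CPM with BPTES to 10258 and 6798 CPM with DMSO, with 7 of 9 lower in both BPTES libraries. At the finer Leiden resolution of 2, 26.9% of the cells of cluster 16 passed to clusters named macrophage, and the C1qa difference in monocytes was then -0.89. In dendritic cells C1qa stood at 467 and 542 CPM against 559.5 and 971 CPM, where the summed macrophage markers were at 990.0 and 1351 CPM against 1482 and 3436 CPM. At Leiden resolution 2 the C1qa difference in dendritic cells turned from -0.61 to 0.10. Cycling cells, the second highest class, overlapped, at 1462 and 382 CPM against 1239 and 2148 CPM. Whether macrophage RNA or macrophages within these classes carried their C1q was not tested.

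In tubule and lymphoid classes, C1q was about as far below its macrophage level as the median macrophage marker, or farther. In proximal tubule C1qa stood at 3.99 and 3.49 CPM with BPTES and 7.47 and 8.82 CPM with DMSO, which is 0.161% of its macrophage level, while the 9 macrophage markers stood at a median of 0.331% of theirs and 8 of them at least as high. In T cells C1qa was at 0.525% and the markers at a median of 0.534%, and in NK cells it was at 0.500% and the markers at 0.592%. The C1q differences in these classes (-1.04, SE 0.14, for C1qa in proximal tubule, -2.19, SE 0.41, in NK cells) stand on these low levels. In proximal tubule 6 of the 9 macrophage markers were lower in both BPTES libraries and 3 higher, and their sum was 254 and 299 CPM against 250.2 and 254 CPM. That sum is not one of macrophage RNA alone, since the highest marker stood at 51.7% of its macrophage level in this class. In T and NK cells the summed macrophage markers were lower with BPTES (33.6 and 29.3 CPM against 77.9 and 122 CPM in T cells, 44.9 and 29.2 CPM against 107 and 121 CPM in NK cells). In B cells the levels were higher, with C1qa at 212 and 119 CPM against 568 and 1633 CPM, which is 17.1% of its macrophage level beside a median of 19.5% for the macrophage markers. Nearly all of that signal came from cluster 47, which held 4 cells in each BPTES library but 20 and 57 with DMSO and carried C1qa at 2175 to 4163 CPM. That cluster held both B cell genes such as Cd79a (410.2 to 565 CPM) and macrophage genes such as Adgre1 (464 to 814 CPM) and Mrc1 (239 to 1004 CPM). Without cluster 47 the C1qa difference in B cells went from -2.72 to -0.03.

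C4 is the component cleaved by the classical pathway. In proximal tubule C4b stood at 10.95 and 14.4 CPM with BPTES and 29.0 and 33.4 CPM with DMSO, so both BPTES libraries were below both DMSO libraries by a fitted log2 fold change of -1.21 (SE 0.18). The 8 proximal tubule markers overlapped between groups in this class, at 22418 and 19739 CPM against 18840.1 and 23468 CPM. In all 7 proximal tubule clusters with at least 20 cells in every library, both BPTES libraries lay below both DMSO libraries. In cluster 0, the largest, the values were 12.9 and 18.3 CPM against 33.1 and 44.6 CPM, and the 5 highest cells held only 6.61% to 8.91% of its C4b UMIs in a library. In macrophages C4b stood at 16.3 and 10.1 CPM against 22.5 and 74.2 CPM, where DMSO library 2 alone was high, and without that library the difference went from -1.88 (SE 0.77) to -0.77. In fibroblasts the order was the opposite, at 56.5 and 80.6 CPM with BPTES and 25.7 and 20.1 CPM with DMSO (log2 fold change 1.63, SE 0.26). That difference lay in cluster 38 (68.6 and 129 CPM against 26.8 and 30.3 CPM), and without it the log2 fold change was 0.28.

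C3 is the component on which all pathways converge, and it differed between groups in opposite directions in tubule and stroma. In proximal tubule it stood at 3.62 and 7.47 CPM with BPTES and at 26.2 and 27.0 CPM with DMSO, a mean 4.80-fold lower with BPTES (log2 fold change -2.17, SE 0.43). The BPTES libraries lay below the DMSO libraries in all 7 proximal tubule clusters with at least 20 cells in every library. In cluster 1, for example, C3 stood at 1.30 and 1.26 CPM against 22.3 and 24.5 CPM. This C3 was held by few cells: the 5 highest cells of cluster 1 carried 55.8% and 73.4% of its C3 UMIs in the DMSO libraries, out of 858 and 653 cells.

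C3 was among the leading genes of 2 small clusters, a proximal tubule cluster and an unnamed one. Cluster 39, a proximal tubule cluster led by C3, the fibrinogen genes Fgg, Fgb and Fga, the injury gene Havcr1 and Sox9, held 17 and 16 cells with BPTES but 99 and 84 with DMSO. Within it C3 stood at 279.7 and 1378 CPM with BPTES and 494 and 674 CPM with DMSO, so the groups overlapped there. The unnamed cluster 42, also with Havcr1, Cp and C3 among its leading genes, held 6 and 6 cells against 48 and 118, with C3 between 389 and 729 CPM in the 4 libraries. It is among the unnamed clusters whose C3 share is given above. Cluster 42 scored highest for the podocyte markers, but only 2 of them were detected and none led. Lrp2, the only proximal tubule marker given for it, stood at 715 and 692 CPM with BPTES and 937 and 697 CPM with DMSO. The proximal tubule difference did not rest on cluster 39: without it the log2 fold change was -2.34. Outside that cluster Havcr1 was also lower in both BPTES libraries, at low levels, in clusters 1 and 0. In cluster 1 it stood at 0.18 and 0.07 CPM against 1.11 and 0.48 CPM. The part of injured cells in the C3 difference was not tested. In the thick ascending limb, where C3 was low, it stood at 0.83 and 0 CPM with BPTES and 8.61 and 26.6 CPM with DMSO.

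In fibroblasts C3 stood at 1832 and 1091 CPM with BPTES and at 143 and 86.7 CPM with DMSO, a mean 12.7-fold higher with BPTES (log2 fold change 3.69, SE 0.38). Both BPTES libraries lay far above both DMSO libraries, and without DMSO library 2, the one with most fibroblasts, the log2 fold change was 3.34. The difference lay in cluster 38, led by Dcn, Gpc6, C7 and Lama2, where C3 stood at 2621 and 1939.6 CPM against 102 and 412 CPM. In cluster 37, led by Mgp, Col3a1, Col1a2 and Col1a1, the groups overlapped at 210.2 and 23.5 CPM against 169.9 and 35.9 CPM. Without cluster 38 the log2 fold change in fibroblasts was 0.24. Cluster 38 made up 78.9% and 66.7% of the class with BPTES but 55.3% and 36.6% with DMSO. The part of this share in the C3, C4b and Cfb differences of the class was not tested.

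Few cells carried this fibroblast C3. In cluster 38, 14 of 45 and 7 of 32 cells of the BPTES libraries had at least 10 C3 UMIs, against 2 of 42 and 8 of 105 cells of the DMSO libraries, and the highest cells held 536 and 378 UMIs against 56 and 115. The 5 highest cells of a library held 74.9% and 95.1% of its C3 UMIs in the cluster with BPTES, and 98.6% and 82.8% with DMSO. All 7 fibroblast markers were present in the class in every library, and their sum was higher with BPTES (16441 and 11984 CPM against 10256 and 9879.7 CPM), with 3 of 7 higher in both BPTES libraries. Within cluster 38 that sum overlapped, at 19359 and 15803 CPM against 11238 and 16481 CPM, and so did the 7 pericyte and smooth muscle markers, at 4304 and 6786 CPM against 6591 and 1289 CPM. Pi16, a gene of adventitial fibroblasts chosen after its values were seen, stood in this cluster at 1120.2 and 238 CPM against 158 and 167 CPM. The part of these shifts in the C3 difference was not tested. The name of cluster 38 was not stable: when complement genes were allowed into the clustering, 223 of its 224 cells fell into a cluster that scored highest for the pericyte and smooth muscle markers and stayed unnamed. At Leiden resolution 2 this held for 149 cells, and the other 75 were named fibroblast. The mean C3 level of fibroblasts over the 4 libraries was 788 CPM as clustered here, 945 CPM at Leiden resolution 2 and 89.4 CPM with predicted doublets kept.

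C3 in leukocytes was less far apart between groups. In monocytes it stood at 119 and 139 CPM with BPTES and 105 and 143 CPM with DMSO, and the groups overlapped (log2 fold change 0.09, SE 0.19). Neutrophils also overlapped, at 85.0 and 69.9 CPM against 68.7 and 166 CPM. In macrophages C3 was lower in both BPTES libraries, at 16.6 and 12.5 CPM against 27.2 and 42.7 CPM (-1.28, SE 0.27).

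Factor B forms the C3-cleaving enzyme of the alternative pathway. Its highest class, proximal tubule, overlapped between groups, at 41.8 and 48.7 CPM with BPTES and 39.1 and 44.3 CPM with DMSO (log2 fold change 0.21, SE 0.13). In cluster 0, the largest, the 5 highest cells held no more than 2.99% of the Cfb UMIs in any library. Over the 7 proximal tubule clusters with at least 20 cells in every library, Cfb was lower in both BPTES libraries in 1, higher in 1 and overlapped in 5. In fibroblasts it followed C3 and C4b, at 26.4 and 24.7 CPM with BPTES and 9.31 and 8.44 CPM with DMSO (1.55, SE 0.30). Cfb in cluster 38 stood at 35.0 and 30.7 CPM against 5.65 and 10.4 CPM, and no log2 fold change without that cluster is given.

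**Figure D2:**
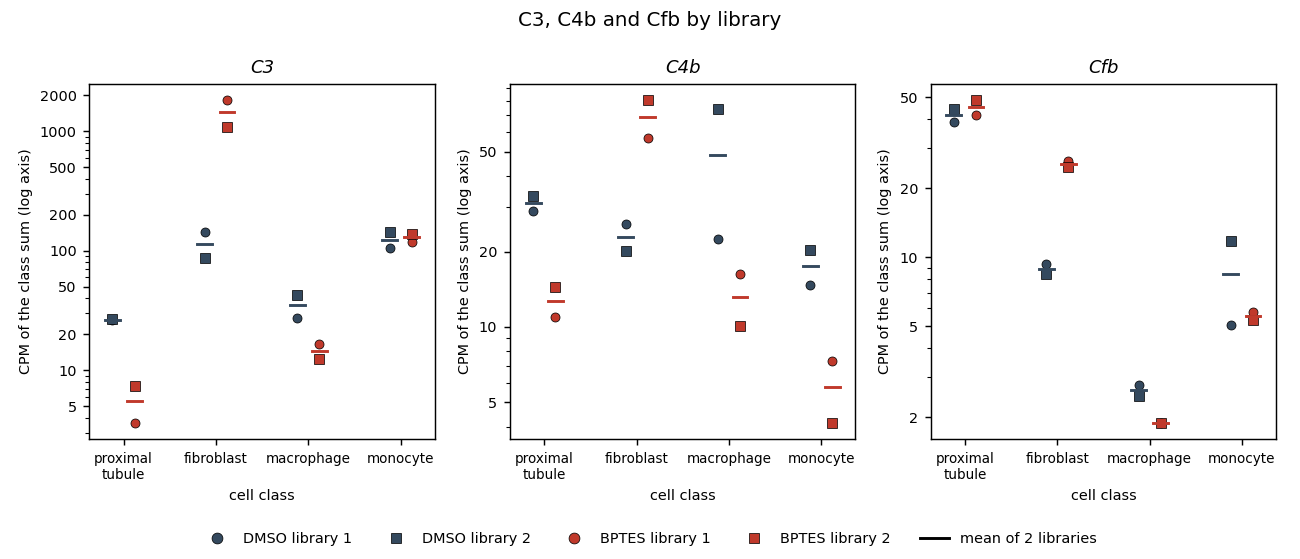
CPM of C3, C4b and Cfb (log axes) in 4 cell classes, with 1 point per library, DMSO in blue-grey and BPTES in red, and a bar at the mean of the 2 libraries. C3 lies below the DMSO libraries in proximal tubule (3.62 and 7.47 CPM against 26.2 and 27.0 CPM) and above them in fibroblasts (1832 and 1091 CPM against 143 and 86.7 CPM), while Cfb overlaps in proximal tubule.

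Properdin, the product of Cfp, stabilises the alternative pathway enzyme and is made by myeloid cells. In macrophages Cfp stood at 40.6 and 40.7 CPM with BPTES and at 121 and 163 CPM with DMSO, a mean 3.49-fold lower with BPTES (log2 fold change -1.82, SE 0.15). This gap was present in each of the 3 macrophage clusters: 43.6 and 48.7 CPM against 138 and 184 CPM in cluster 5, 37.2 and 29.3 CPM against 78.9 and 136 CPM in cluster 15, and 77.4 and 84.4 CPM against 569.8 and 193 CPM in cluster 40. Cluster 40 held only 33 and 28 cells with BPTES and 53 and 84 with DMSO. Its cells were shallow, at 0.084 of the median UMIs of their library, so its Cfp rested on few UMIs. In cluster 5, 4 of 564 and 10 of 528 cells of the BPTES libraries had at least 10 Cfp UMIs, against 63 of 754 and 67 of 604 cells of the DMSO libraries. The summed dendritic cell markers, which mark the class richest in Cfp, overlapped between groups in the macrophage class, at 136 and 127 CPM against 135 and 81.2 CPM. The monocyte markers overlapped there too, at 734 and 664 CPM against 818 and 698 CPM. As given above for C1q, the macrophage markers were lower and the proximal tubule markers higher with BPTES in this class. The part of these shifts in the Cfp difference was not tested.

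Monocytes and dendritic cells showed the same order. In monocytes Cfp stood at 101 and 78.1 CPM with BPTES and at 286 and 207 CPM with DMSO (log2 fold change -1.44, SE 0.18). As with C1q, the gap lay in cluster 16 (136 and 107 CPM against 353 and 265 CPM), while cluster 19 overlapped at 36.5 and 25.5 CPM against 30.7 and 22.3 CPM. At Leiden resolution 2 the monocyte difference was -0.52. In dendritic cells Cfp stood at 223 and 195 CPM with BPTES and at 352 and 382 CPM with DMSO (-0.83, SE 0.08).

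The dendritic cell class held 2 clusters with different Cfp levels and shares. Cfp was high in cluster 12, led by Cd209a, Ccl17 and Clec10a, genes of type 2 dendritic cells, at 349.7 and 308 CPM with BPTES and 426 and 515 CPM with DMSO. It was low in cluster 28, led by Xcr1, Naaa and Clec9a, genes of type 1 dendritic cells, at 58.1 and 57.6 CPM against 64.8 and 106 CPM. Cluster 12 made up 62.5% and 59.7% of the class with BPTES but 81.7% and 69.5% with DMSO. With cluster 28 left out the log2 fold change in dendritic cells was -0.52. In neutrophils Cfp overlapped, at 113 and 114 CPM against 111 and 183 CPM. Plasmacytoid dendritic cells, too few to fit with 28, 31, 38 and 2 cells, held Cfp at 151 and 251 CPM with BPTES and 129 and 115 CPM with DMSO.

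**Figure D3:**
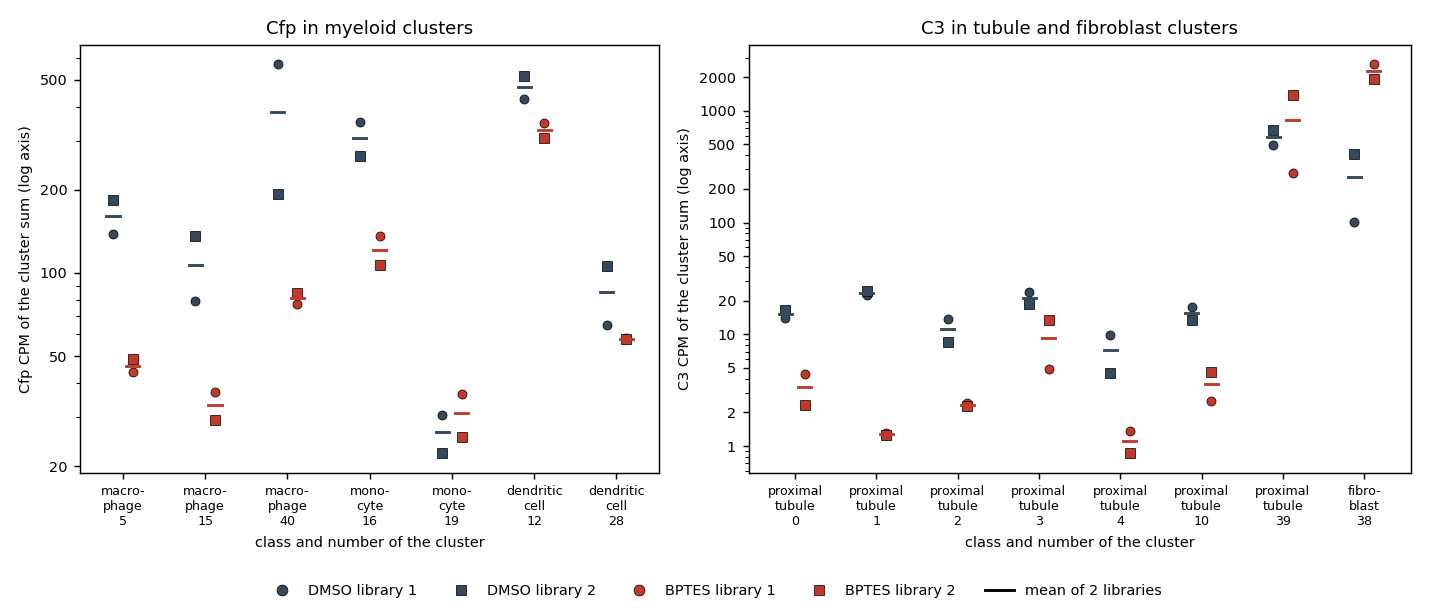
CPM (log axes) of Cfp in 7 myeloid clusters (left) and of C3 in 7 proximal tubule clusters and fibroblast cluster 38 (right), with 1 point per library, DMSO in blue-grey and BPTES in red, and a bar at the mean of the 2 libraries. Cfp is lower in both BPTES libraries in every cluster shown except monocyte cluster 19, and C3 is lower in every tubule cluster shown except cluster 39 and higher in cluster 38.

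C3aR1 and C5aR1 receive the fragments C3a and C5a. C3ar1 in macrophages stood at 227 and 207 CPM with BPTES and at 320.0 and 412 CPM with DMSO, a mean 1.69-fold lower with BPTES (log2 fold change -0.77, SE 0.13). It was lower in both BPTES libraries in clusters 5 and 15, at 278 and 248 CPM against 347 and 476 CPM in cluster 5, and it overlapped in cluster 40. In monocytes C3ar1 stood at 60.0 and 31.03 CPM against 105 and 121 CPM (-1.29, SE 0.33), and at Leiden resolution 2 the difference was -0.69. C5ar1 showed smaller differences. Its highest class, neutrophils, gave 690 and 685 CPM with BPTES and 658 and 653 CPM with DMSO (0.14, SE 0.24, and -0.02 with predicted doublets kept), and macrophages gave 195 and 198 CPM against 224 and 243 CPM (-0.26, SE 0.08). Of the 3 macrophage clusters, C5ar1 was lower in both BPTES libraries in 1, higher in both in 1 and overlapped in 1.

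**Figure D4:**
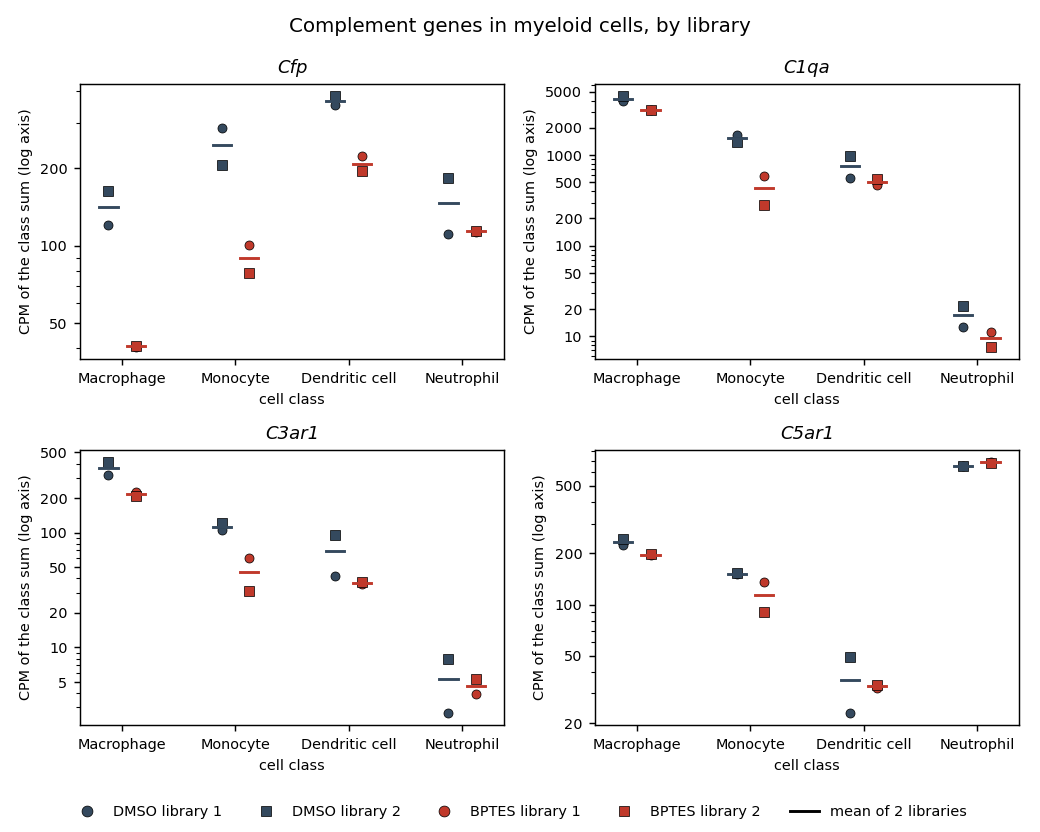
CPM (log axes) of Cfp, C1qa, C3ar1 and C5ar1 in 4 myeloid classes, with 1 point per library, DMSO in blue-grey and BPTES in red, and a bar at the mean of the 2 libraries. In macrophages the BPTES libraries lie below the DMSO libraries for all 4 genes, most widely for Cfp (40.6 and 40.7 CPM against 121 and 163 CPM), and in neutrophils C5ar1 lies between 653 and 690 CPM in all 4 libraries.

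A gene was called where its adjusted p in edgeR's quasi-likelihood test, over all genes tested in the class, was under 0.05. Of 97 pairs of a member and a class that passed the filter on low counts, 12 were called, 11 of them lower with BPTES, beside 0.735% called of all pairs of a gene and a class. Since the members were chosen on this same contrast, the counts are given as a description and nothing is read from them. In proximal tubule 4 of 9 were called (C1qa, C1qb, C1qc and C4b) beside 0.81% of all genes. In macrophages 2 of 9 were called (Cfp and C3ar1) beside 3.34%, and in dendritic cells 1 of 9 (Cfp) beside 2.23%. In NK cells 3 of 3 were called (the C1q chains) beside 1.03%, in T cells 1 of 9 (C1qb) beside 0.325%, and in fibroblasts 1 of 3 (C3) beside 0.696%. The median log2 fold change of the members that passed the filter was -0.49 in macrophages and -0.98 in proximal tubule, but 1.63 in fibroblasts (3 members) and 1.36 in intercalated cells (3 members). The median of all genes was -0.01 in each of these classes. In intercalated cells every member but Cfb overlapped between groups. C1qa stood there at 0.341% of its macrophage level, beside a median of 0.438% for the macrophage markers.

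**Figure D5:**
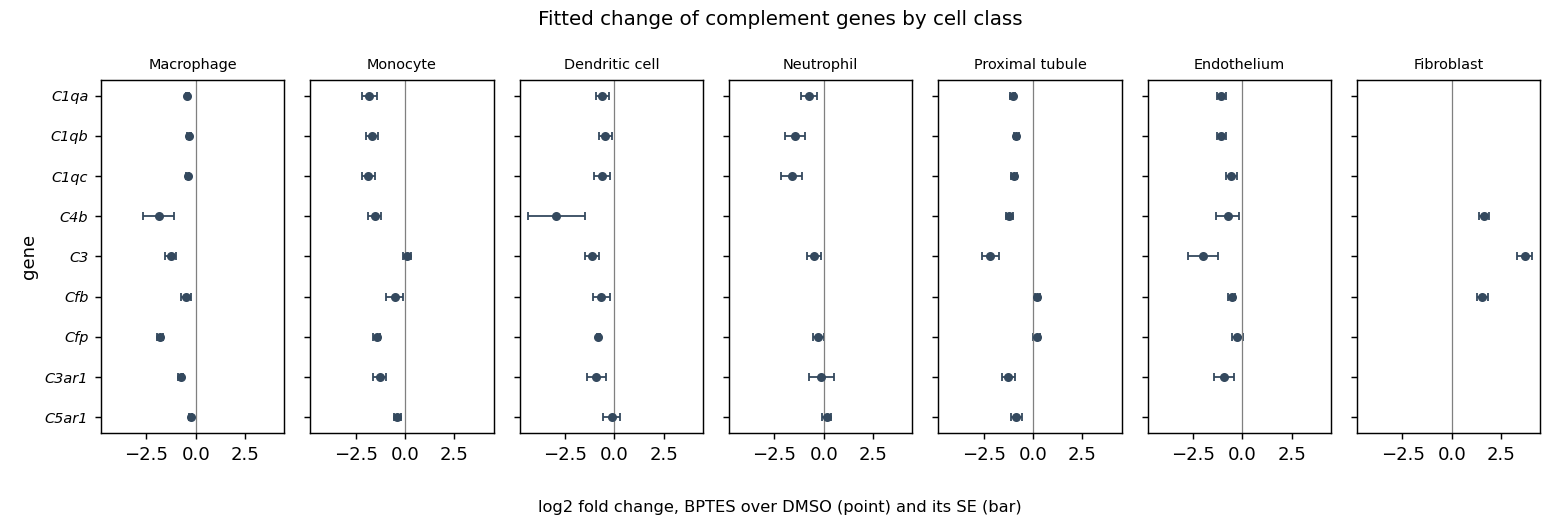
Fitted log2 fold change, BPTES over DMSO, of the 9 complement genes in 7 cell classes, with its SE as a bar, and no point where a gene did not pass the filter on low counts. In macrophages the points lie below 0, from -0.26 for C5ar1 to -1.88 for C4b, and in fibroblasts the 3 points lie above 0, with C3 at 3.69.

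The rest of the pathway was followed with a list of 51 other complement genes in 6 roles, of which 48 were in the tables and 38 passed the filter in at least 1 class. The members were not chosen by the values of these genes, which were tested, but the list was drawn up with earlier results of the same libraries known and is not independent of them. Fibroblasts were the highest class for the lectin Colec12 (908 CPM in the mean of the 4 libraries), the terminal component C7 (851 CPM) and the membrane regulator Csmd1 (2256 CPM). C7 and Csmd1 were among the leading genes of cluster 38, whose name as fibroblast was not stable. The receptor gene Cd93 was highest in endothelium (537 CPM). Factor D (Cfd), the protease that activates factor B, had only 7 UMIs over all named classes and the 4 libraries. Named after their values were seen, the C1 inhibitor Serping1 was also highest in fibroblasts (2048 CPM), factor I (Cfi), which cleaves C3b, in proximal tubule (21.1 CPM) and the membrane regulator Cd55 in B cells (521 CPM).

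Of 221 pairs of such a gene and a class, 4 fell with BPTES in edgeR's quasi-likelihood test and none rose, beside 0.735% called of all pairs of a gene and a class. An unadjusted p under 0.05 was found for 54 of these 221 pairs and for 27128 of all 183921 pairs. Over the 15 classes found under every clustering DESeq2 called 14 pairs, none higher. Other alternatives did give higher calls, with 4 of 16 under the replicate block, 4 of 33 with no low-count filter and 7 of 31 without DMSO library 1. Clusterin (Clu), a soluble regulator of the terminal pathway that injured tubules make, fell in the thick ascending limb, from 810.1 and 1419 CPM in the DMSO libraries to 181 and 190.4 CPM in the BPTES libraries (log2 fold change -2.42, SE 0.23, adjusted p = 0.0001708, edgeR). There 0.27% of all genes were called, and the call was lost in 2 of 15 alternatives, those that kept only 1 of the 2 clusters of the class, with adjusted p up to 0.982. In cluster 32, kept when cluster 17 was left out, Clu stood at 159 and 309 CPM against 733 and 1875 CPM (-2.39, adjusted p = 0.474). In cluster 17, which held 777 of the 1061 cells and was kept when cluster 32 was left out, it overlapped between groups at 203 and 50.4 CPM against 917 and 103 CPM (-1.80, adjusted p = 0.982). Cluster 32 made up 37.9% of the class in DMSO library 2 and 20.5% to 24.9% in the other libraries. Clu also fell in proximal tubule, from 4.23 and 4.84 CPM to 1.88 and 1.29 CPM (-1.43, SE 0.19, adjusted p = 0.0276, edgeR), with adjusted p up to 0.152 over the alternatives. Without BPTES library 2 the difference was -1.24 with an adjusted p of 0.133, and with complement genes in the clustering it was -1.42 with 0.152. In principal cells, its highest class, Clu stood at 1957 and 3914 CPM with BPTES and 5144 and 5316 CPM with DMSO and did not pass the test.

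The other pair of calls was in receptors. Itgax, a chain of complement receptor 4 and a dendritic cell gene, was highest in NK cells (227 CPM in the mean of the 4 libraries). In dendritic cells Itgax fell from 255 and 216 CPM with DMSO to 169.4 and 168.7 CPM with BPTES (log2 fold change -0.49, SE 0.09, adjusted p = 0.0484, edgeR). It was not past the threshold in 7 of 14 alternatives, with adjusted p up to 0.238. Among these were the fits without BPTES library 1 (-0.47, adjusted p = 0.184, edgeR) or BPTES library 2 (-0.51, 0.238), where the difference was about as large, and without DMSO library 1 (-0.36, 0.0627) or cluster 28 (-0.32, 0.117), where it was smaller. Cd93, listed here under other receptors and binding proteins, fell in B cells from 26.0 and 41.4 CPM to 5.95 and 8.82 CPM (-2.20, SE 0.34, adjusted p = 0.0442, edgeR), beside 0.531% of all genes called there. It was not past the threshold in 6 of 14 alternatives. These were the fits without BPTES library 1 (-1.88, adjusted p = 0.272, edgeR) or BPTES library 2 (-2.49, 0.265), with a 25% mitochondrial limit (-2.11, 0.0754), with complement genes in the clustering (-2.14, 0.0542), with doublets kept (-1.24, 0.0951) and without cluster 47. Without that cluster, which also held the B cell C1q, the difference was -0.56 with an adjusted p of 0.777.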

How the data were processed

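Single-cell RNA-seq of aged mouse kidney (10x GEM-X 3′ v4) was analysed in 4 libraries, 2 from BPTES-treated and 2 from DMSO-treated mice. The deposited tables hold raw UMI counts per gene and barcode, made by the authors with Cell Ranger 8.0.1 on mm10, per the file headers and the submitters' processing notes. The gene annotation is not given in the sources used here. The tdTomato feature was left out of tests.

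Barcodes with at least 500 UMIs, 300 genes and at most 50% mitochondrial UMIs were kept, and those with the highest Scrublet scores were removed as doublets (0.4% per 1000 barcodes, 837 to 1055 a library). Cells were clustered in scanpy 1.11.5 (3000 variable genes without complement genes, 40 principal components, 15 neighbours, Leiden resolution 1). Clusters were named from 24 lists of 159 markers and kept a name only with at least 3 detected markers. A name was also dropped where markers of another class led, or where a cluster had few UMIs per cell and no marker of its own led. Raw counts were summed per library and class and fitted in edgeR 4.0.16 (R 4.3.3) by the quasi-likelihood test with TMM scaling and its low-count filter, adjusted by Benjamini-Hochberg over all genes of a class. The p-values measure only the spread between these libraries. Each SE is the absolute log2 fold change divided by the square root of F in the quasi-likelihood test. The spread behind F is partly shared over the genes of a class, so an SE is not the spread of that gene alone. DESeq2 1.42.0 was an alternative, and a test on simulated counts was run first. Genes outside the members were named where called, where first of their role by CPM (a rule for naming, not a comparison of levels between genes), or where nearest in profile over classes, with further ones named to describe clusters and roles after their values were seen. The members, gene lists and marker lists were chosen with earlier results of these data known. The highest gene of 1 role is not reported here.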

Additional observations from a re-analysis of the deposited data

Results flagged for a closer look

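Among pairs of a gene and a class that passed the low-count filter, 5 genes had both BPTES libraries above both DMSO libraries in one class and below them in others. The difference between classes was not tested. The share of all genes with such a pattern is not given, so nothing is read from this number of genes. C3 had a log2 fold change of 3.69 in fibroblasts (0.24 without cluster 38) and was lower in both BPTES libraries in proximal tubule, thick ascending limb, endothelium, macrophages, dendritic cells and cycling cells. C4b had 1.63 in fibroblasts (0.28 without cluster 38) and was lower in proximal tubule, macrophages, monocytes, dendritic cells and T cells. Cfb had 1.55 in fibroblasts (no value without cluster 38 is given) and was lower in endothelium, macrophages and dendritic cells. Cfp had 0.18 in proximal tubule, where it was near 2 CPM in every library, and was lower in endothelium, macrophages, monocytes, dendritic cells, B cells and cycling cells. C5ar1 had 0.14 in neutrophils and was lower in proximal tubule, macrophages, monocytes and B cells. Proximal tubule held only 0.532% of a library's C5ar1 UMIs on average. The macrophage clusters differed in direction, and the only B cell cluster with at least 20 cells in every library overlapped.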

How the results depend on the processing

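Of 966 values of 72 member and class differences under the alternatives, 946 had the sign of the reported value and 820 lay within 1 SE of it. Counts of calls, made from 2 libraries a group, moved widely. Over the 15 classes found under every clustering, 11 member pairs were called. This became 39 with no low-count filter, 26 with DESeq2 and 15 with a 25% mitochondrial limit, and 1 (without BPTES library 2) to 40 (without DMSO library 1) when 1 library was left out. For the other complement genes 4 became 33, 14 and, with doublets kept, 7, and 1 to 31 without the same 2 libraries. With a replicate block they were 25 and 16, and with crossed pairing 23 and 10. The main fits did not pair the libraries by number. The correlation of deviations by library number ran from -0.18 to 0.42 (highest in proximal tubule), above 0.1 in 8 of 16 classes and below -0.1 in 2. With 2 libraries a group it cannot decide whether the numbers pair the libraries. Leaving out 1 library at a time gave Cfp in macrophages -2.02 to -1.59, C1qa in macrophages -0.51 to -0.33, C3 in proximal tubule -2.85 to -1.68, C4b there -1.48 to -0.97 and C3 in fibroblasts 3.27 to 4.09. Cfp in macrophages was -2.16 at Leiden resolution 2 and -1.57 with doublets kept, C1qa there -0.31 without cluster 15, and C3 in proximal tubule -2.88 with complement genes in the clustering. Without cluster 38, C3 in fibroblasts was 0.24 and C4b 0.28. At Leiden resolution 2, with doublets kept and with complement genes in the clustering, a library held as few as 31, 16 and 12 cells named fibroblast, under the minimum of 40, and no fold change was fitted. Leaving out clusters and the crossed pairing were chosen after seeing the data.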
